A study of Mus musculus with 8 samples.

Results

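Peaks of the histone mark H3K27me3 were examined at 7 germ-layer regulators in mouse morulae. The 7 genes, which are all those placed on the peaks here, were chosen by name and locus, with earlier results of these data known. The genes were Pax6 and Olig2 (ectoderm), T, Tbx5 and Nkx2-5 (mesoderm), and Foxa2 and Sox17 (endoderm). Around them lay 33 of the 90158 peaks from embryos given the mutant Kdm6b mRNA (Kdm6bMUT) and 3 of the 4991 peaks from embryos given the wild-type mRNA (Kdm6bWT). A peak was assigned to a gene when it touched the gene's mm9 interval or the 20 kb on either side. Peaks reaching within 2.5 kb of the interval were set against peaks lying wholly in the flanks beyond it.

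Both groups were morulae labelled BDF1xPWK, grown in culture from fertilized oocytes of BDF1 females aged 8 weeks. Each zygote had received mRNA at 1.8 µg/µl, with injection starting 2.5 hours after fertilization and finished by 4 hours; the mutation is not described in the labels. The protocols name both BDF1 and PWK sperm, and the 2 inputs are titled by injection yet tagged as not injected. Each injection had 1 ultra-low-input native ChIP library from whole embryos, so every comparison sets 1 library against 1 library, without a test. How many embryos each ChIP used is not given in the sources used here, and read depth is unknown. The lists do not separate parental alleles or cells, so fewer cells with the mark and less of it per cell cannot be told apart. Peak lists also offer no check of the labelled stage.

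H3K27me3 is laid down by Polycomb repressive complex 2 and is associated with gene silencing; Kdm6b is an enzyme that removes it. In embryonic stem cells, promoters of germ-layer regulators are classical sites of this mark, where the genes are held silent before lineages form. In preimplantation embryos the mark is also known from broad domains inherited from the oocyte, many of them away from CpG-rich promoters.

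In Kdm6bMUT-injected morulae the 7 genes fell into 2 sets. Tbx5, Foxa2, Nkx2-5 and Pax6 each had Kdm6bMUT peaks within 2.5 kb as well as in the flanks, whereas Olig2, T and Sox17 had 0 Kdm6bMUT peaks within 20 kb. The 4 genes of 7 with a peak within 2.5 kb can be read beside 26.8% of autosomal 10 kb tiles and 40.3% of 50 kb tiles that a Kdm6bMUT peak touched; the windows of the members ran from 9.0 to 57.0 kb. With tiles of each member's own length the share was lowest for Olig2 and Nkx2-5, at 26.1%, and highest for Tbx5, at 41.9%. With 20 kb either side, the windows of Olig2, Sox17 and T were 44.0, 46.0 and 49.0 kb. Since 40.3% of 50 kb tiles were touched, having no peak in a window of about that length was the more common outcome. Each germ layer had genes in both sets. One of 2 ectodermal, 2 of 3 mesodermal and 1 of 2 endodermal genes had a peak within 2.5 kb.

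**Figure D1:**
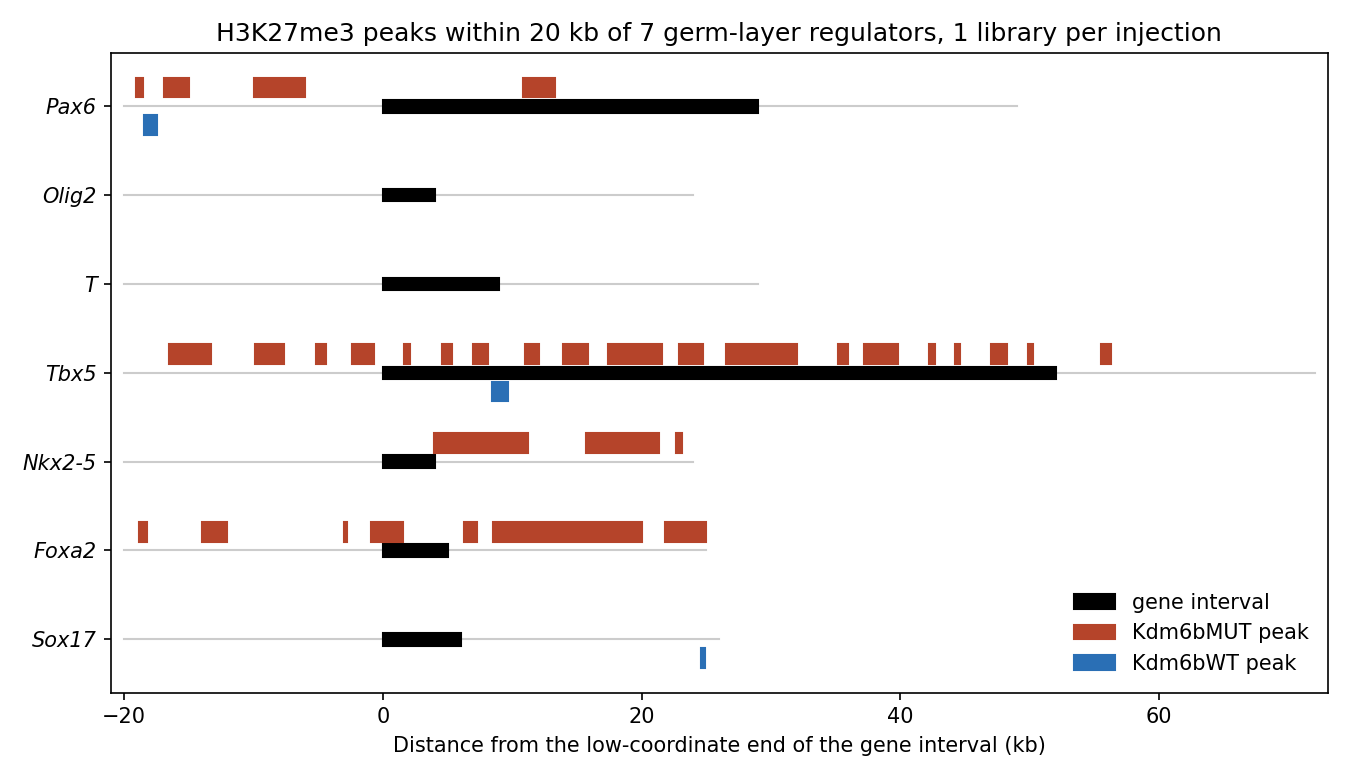
Peaks within 20 kb of each gene, with the distance in kb from the low-coordinate end of the gene interval on the x axis and 1 row per gene; black bars are gene intervals, red boxes Kdm6bMUT peaks (above the line) and blue boxes Kdm6bWT peaks (below it). The Tbx5 row holds 19 red boxes, the Olig2 and T rows hold none of either colour, and the Sox17 row holds 1 blue box.

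Tbx5, a T-box factor needed for heart and forelimb development, had the most peaks. Its interval (chromosome 5, 120284000 to 120336000) was touched by 14 Kdm6bMUT peaks, a further peak ended 0.717 kb before it, and 4 lay in the flanks. Kdm6bMUT peaks covered 43.2% of the gene with 2.5 kb either side and 20.3% of the flanks. It was the 1 member of the 4 with peaks whose coverage was higher near the gene than in the flanks. The peaks were spread along the gene in short blocks, and the longest stretch of the interval without one was 3.18 kb. The widest, from 120310543 to 120315990, had a fold enrichment over input of 2.94, and the strongest, from 120333851 to 120334246, had 3.91. That strongest peak was among the narrowest, with 396 bases. Joined across gaps of less than 10 kb, the peaks at Tbx5 belonged to a run of 26 peaks that spanned 116 kb, contained the whole interval and extended further towards lower coordinates. Peaks filled 45.6% of this run.

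Foxa2, a forkhead factor of the definitive endoderm, node and floor plate, lay inside the longest run of Kdm6bMUT peaks met at any member. The run held 50 peaks over 396 kb (chromosome 2, 147849143 to 148245065), and 99.5% of the 16873 autosomal runs were shorter. The same rank was 94.8% at Tbx5, 81.6% at Nkx2-5, and 80.4% and 33.9% at Pax6. Such ranks count runs, and a long run is more readily met at a chosen gene, so they overstate how unusual a run is. The share of bases in runs of these lengths was not computed. Within the Foxa2 run the gene interval (147868000 to 147873000) was touched by 1 peak, from 147867082 to 147869534, at its 3′ end. It had a fold enrichment of 3.27 and a −log10 p of 3.97. The remaining 3.47 kb of the interval held no peak. A peak of 1007 bases lay 1.26 kb upstream of the 5′ end, and 3.53 kb upstream began a peak of 11.5 kb (147876526 to 147888035), wider than 96.8% of the Kdm6bMUT list, with a fold enrichment of 3.37. Coverage was 34.6% near the gene, 84.1% in the upstream flank and 16.8% in the downstream flank. Foxa2 thus had less coverage near the gene than in its flanks together (50.4%).

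Nkx2-5, a homeobox factor of the cardiac lineage, stood at an edge. A peak of 7.29 kb (chromosome 17, 26978914 to 26986204, fold enrichment 3.02) entered only the last 87 bases of the interval (26975000 to 26979000), at the 5′ end, and ran upstream. The interval ends are rounded to kilobases, so an overlap of 87 bases is within that rounding. A second peak of 5.69 kb (26990677 to 26996365, fold enrichment 3.28) and one of 478 bases (fold enrichment 3.43) lay further upstream. Coverage was 62.1% in the upstream flank and 0% in the downstream flank, where the nearest Kdm6bMUT peak was 259 kb away. Near the gene it was 28.7%, against 31.1% for both flanks.

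Pax6, a paired-box and homeobox factor of eye and forebrain, was also one-sided. A single Kdm6bMUT peak of 2.44 kb lay within its interval (chromosome 2, 105508000 to 105537000), from 105518848 to 105521289, with a fold enrichment of 2.95. The other 3 lay upstream of the 5′ end, at distances of 6.0, 15.0 and 18.5 kb, with fold enrichments of 2.92, 3.28 and 2.85. The flank downstream had none, and the next Kdm6bMUT peak on that side was 616 kb away. Coverage was 7.18% near the gene, 36.9% in the upstream flank and 18.4% over both flanks.

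T (Brachyury), the T-box factor of primitive streak and notochord, lay farthest from any Kdm6bMUT peak. From its interval (chromosome 17, 8627000 to 8636000) the nearest peaks were 821 kb towards lower and 673 kb towards higher coordinates, a stretch of 1504 kb without a Kdm6bMUT peak. Stretches at least that long made up 12.6% of the autosomes. Olig2, a basic helix-loop-helix factor of motor neuron and oligodendrocyte progenitors, lay in a stretch of 642 kb without a peak. Its interval (chromosome 16, 91225000 to 91229000) was 33.0 kb from the nearest Kdm6bMUT peak, on the downstream side. Sox17, an HMG-box factor of definitive endoderm, lay in a stretch of 576 kb, with the nearest Kdm6bMUT peak 81.0 kb from its interval (chromosome 1, 4481000 to 4487000). Stretches of at least these lengths held 33.4% and 36.3% of the autosomal bases, respectively.

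Near-gene coverage and flank coverage did not separate the members in 1 common direction. Of the 4 genes with Kdm6bMUT peaks, 1 (Tbx5) had more near the gene and 3 (Pax6, Nkx2-5, Foxa2) had more in the flanks. Pooled over all 7 genes, Kdm6bMUT peaks held 23.0% of the bases within 2.5 kb (33.1 of 144 kb) and 17.2% of the flank bases (42.1 of 245 kb), beside 10.3% of all autosomal bases. Tbx5 decided the order of these values. Without it the shares were 9.76% near the genes and 16.7% in the flanks. The order also turned, to 4.12% near the genes and 8.89% in the flanks, when weaker peaks were left out at the −log10 p limit given further on. By distance from the interval, 17.4% of bases up to 2.5 kb away lay in Kdm6bMUT peaks, 16.1% from 2.5 to 5 kb, 19.5% from 5 to 10 kb, 16.3% from 10 to 20 kb, 15.1% from 20 to 50 kb and 7.09% from 50 to 100 kb. Up to 50 kb these shares thus stayed between 15.1% and 19.5%, with the highest at 5 to 10 kb.

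**Figure D2:**
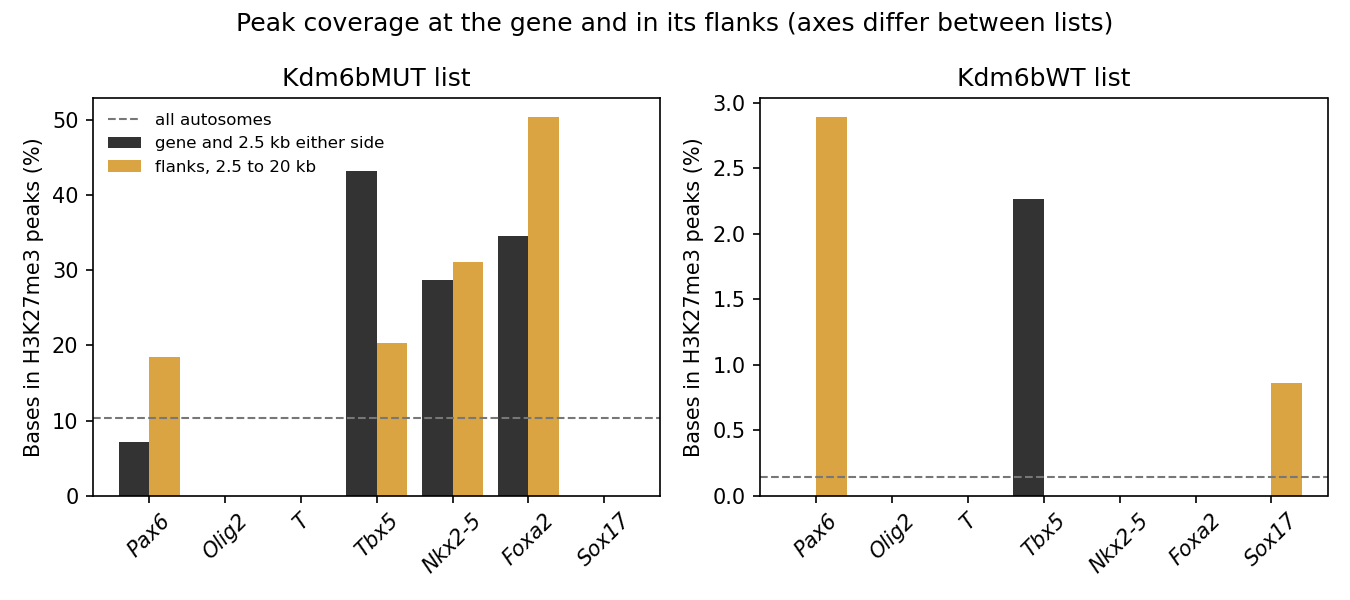
Percent of bases in peaks (y axis) within 2.5 kb of each gene (dark bars) and in its flanks from 2.5 to 20 kb (yellow bars), for each list, with the share of all autosomal bases as a dashed line; each bar is 1 library and the y axes differ. In the Kdm6bMUT list the dark bar is the higher one at Tbx5, and the yellow bar at Pax6, Nkx2-5 and Foxa2.

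The thresholds at 2.5 and 20 kb passed close to some peaks. The peaks nearest to the first were the one 1.26 kb from Foxa2, inside, and one 2.73 kb from it on the other side, outside. Around the second, the outermost Kdm6bMUT peak inside was 18.6 kb from Nkx2-5, and the nearest outside were 20.5 kb from Tbx5 and 20.5 kb from Nkx2-5. The lack of Kdm6bMUT flank peaks at Olig2 depended on the limit, since flanks to 50 kb took in the peak 33.0 kb away and raised the genes with a flank peak from 4 to 5. T and Sox17 still had none. No background share was computed for flanks to 20 or 50 kb, so these flank counts are not read as above or below one.

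Only part of the pattern rested on stronger peaks, which also holds for the Kdm6bMUT list as a whole. The weakest Kdm6bWT peak had a −log10 p of 3.67. Among all 90158 Kdm6bMUT peaks 41477 reached that value, so most of the list also fell below it. Of the 33 Kdm6bMUT peaks at the members 12 reached it, 5 of them within 2.5 kb of a gene: 4 at Tbx5 and 1 at Foxa2. The genes with a peak within 2.5 kb then numbered 2 of 7, beside 17.2% of 10 kb tiles and 30.7% of 50 kb tiles at the same limit. Near-gene coverage was then 6.10% at Tbx5 and 24.5% at Foxa2, and 0% at Pax6 and Nkx2-5, each of which still had peaks in the flanks.

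The fold enrichment of the member peaks was ordinary for the Kdm6bMUT list. It ran from 2.70 to 3.91 with a median of 3.02, beside a list median of 3.07 (quartiles 2.87 and 3.29). Of the 19 peaks within 2.5 kb, 5 exceeded the list median, with a median of 2.94 among them all; of the 14 flank peaks 9 did, with a median of 3.18. Widths ran from 300 bases to 11.5 kb, with a median of 1652 bases beside 1577 for the list. The near-gene peaks had a median width of 1239 bases and the flank peaks 1938 bases. As 15 of the 19 near-gene peaks are at Tbx5, these medians mostly describe that gene.

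**Figure D3:**
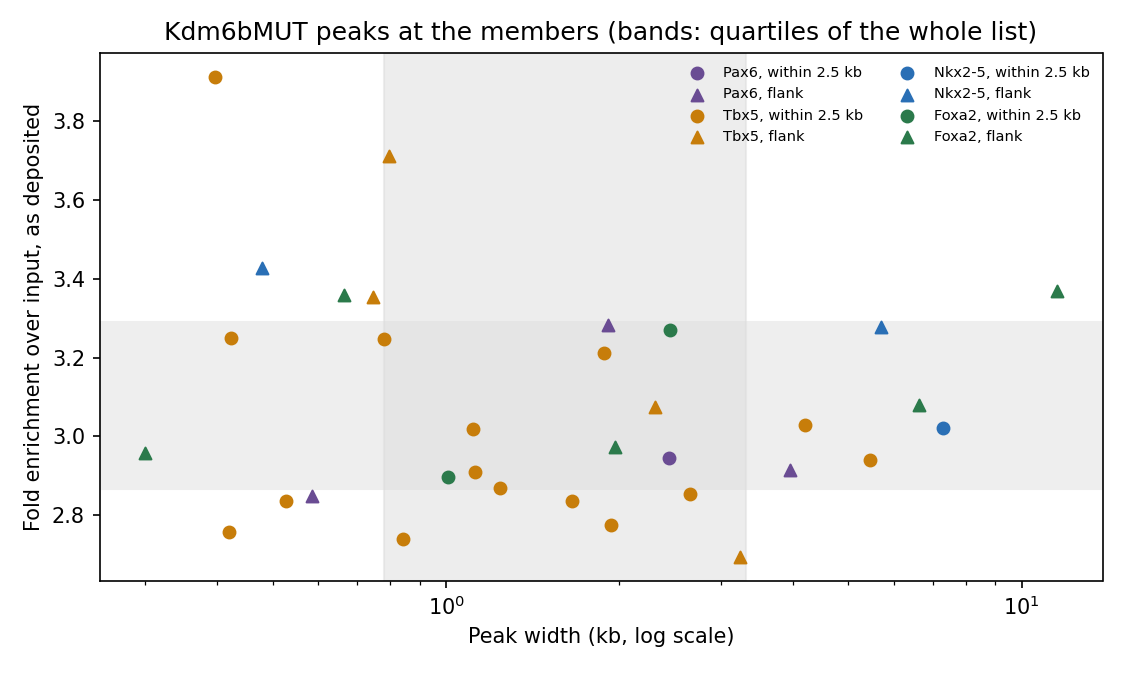
Fold enrichment over input as deposited (y axis) against peak width in kb (x axis, log scale) for the 33 Kdm6bMUT peaks at Pax6, Tbx5, Nkx2-5 and Foxa2; circles are peaks within 2.5 kb of the gene, triangles flank peaks, and grey bands the quartiles of the whole list. The widest peak is a Foxa2 flank peak of 11.5 kb and the highest fold enrichment, 3.91, is a narrow Tbx5 peak.

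The wider surroundings differed between members in much the same order as the loci. With 500 kb on either side, Kdm6bMUT peaks covered 45.6% at Foxa2, 17.8% at Tbx5, 13.99% at Nkx2-5, 5.40% at Pax6, 0.687% at Sox17, 0.344% at Olig2 and 0% at T. The median 1 Mb tile of the autosomes had 5.75% (quartiles 1.15% and 15.1%). Foxa2 stood above 97.9% of the 2397 tiles, Tbx5 above 79.7%, Nkx2-5 above 73.05% and Pax6 above 48.4%. Olig2 stood above 16.6% and Sox17 above 21.2%, both below the lower quartile, and 8.09% of tiles were, like the surroundings of T, without any Kdm6bMUT peak. The 3 genes with no peak within 20 kb were thus also the 3 with the least coverage over 500 kb. This is a description of 7 loci whose windows contain the gene windows themselves.

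**Figure D4:**
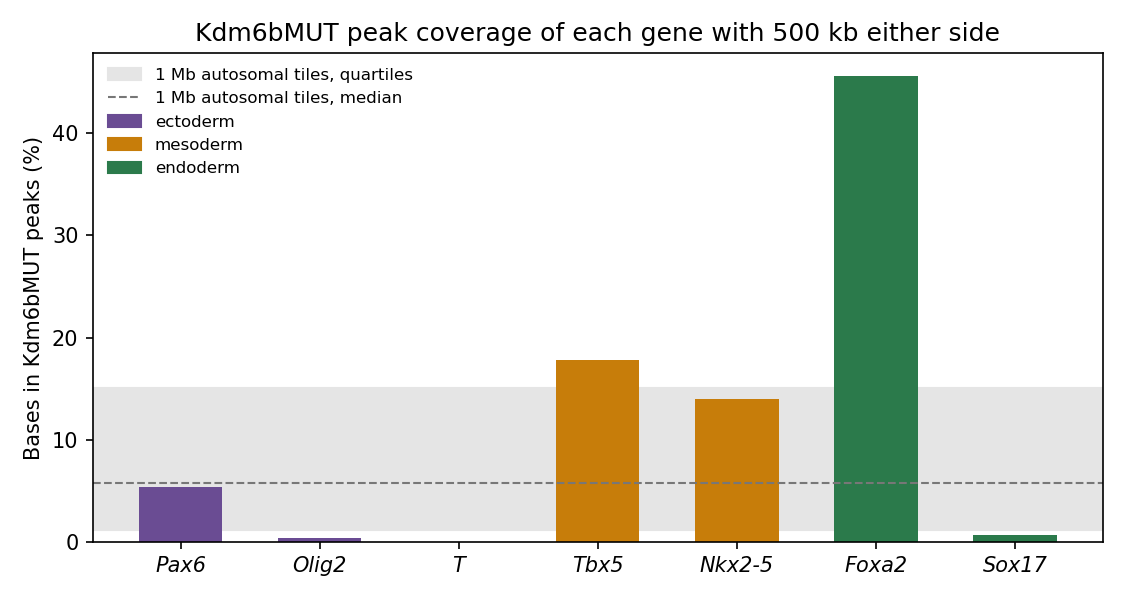
Percent of bases in Kdm6bMUT peaks (y axis) over each gene interval and 500 kb either side, 1 library, coloured by germ layer; the grey band and dashed line are the quartiles and median of autosomal 1 Mb tiles. Foxa2 (45.6%) and Tbx5 (17.8%) lie above the band, and Olig2, T and Sox17 lie below it.

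In Kdm6bWT-injected morulae 3 H3K27me3 peaks lay at the 7 loci. Tbx5 had 1 within 2.5 kb, and Pax6 and Sox17 had 1 each in a flank. The Kdm6bWT list touched 2.06% of 10 kb tiles and 8.87% of 50 kb tiles. Kdm6bWT peaks covered 0.896% of the bases within 2.5 kb and 0.536% of the flank bases, beside 0.140% of all autosomal bases. By bases the members thus stood above the background of this list, but on 3 peaks. The near-gene value rests on the Tbx5 peak alone. By count, 1 gene of 7 had a peak within 2.5 kb, and this was Tbx5, whose window of 57.0 kb was the longest. Kdm6bWT shares for tiles of each member's own length were not computed, so the count is not read as above the background. Olig2, T, Nkx2-5 and Foxa2 had 0 Kdm6bWT peaks within 20 kb, and the nearest were 750, 1035, 340 and 241 kb from their intervals. They lay in stretches of 2033, 2735, 901 and 2878 kb without a Kdm6bWT peak. Stretches of at least these lengths held 26.1%, 14.2%, 59.8% and 12.7% of the autosomal bases, respectively.

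At the 7 genes the lists shared no base: 0 of the 3 Kdm6bWT peaks and 0 of the 33 Kdm6bMUT peaks overlapped one of the other list. Over the whole lists 49.5% of Kdm6bWT peaks and 2.66% of Kdm6bMUT peaks did, so counts of 0 among so few peaks set nothing apart about these genes. The Tbx5 peak (chromosome 5, 120292397 to 120293686) lay in the gene, in a gap between Kdm6bMUT peaks, 272 bases from the nearer one. Its fold enrichment was 4.93, above 96.2% of the Kdm6bWT list, and its −log10 p was 6.52. The Pax6 peak (chromosome 2, 105489540 to 105490551, fold enrichment 3.60) lay 17.4 kb upstream of the interval and 42 bases from a Kdm6bMUT peak. The Sox17 peak (chromosome 1, 4505599 to 4505898, fold enrichment 3.78) had the minimum width of 300 bases, lay 18.6 kb from the interval and was 62.1 kb from any Kdm6bMUT peak. The peaks at Tbx5 and Pax6 therefore lay within runs of Kdm6bMUT peaks, and the one at Sox17 did not. At Foxa2 the 396 kb run held 0 Kdm6bWT peaks, and the run of 41.3 kb at Nkx2-5 also held 0. Only 8.87% of autosomal 50 kb tiles were touched by a Kdm6bWT peak, so 0 at Nkx2-5 was the usual outcome. No share was computed for windows of 396 kb, so the 0 at Foxa2 is not read as particular to that gene.

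Over 500 kb either side, the Kdm6bMUT and Kdm6bWT lists covered 458 and 0.630 kb at Foxa2, 187 and 2.74 kb at Tbx5, 140 and 1.11 kb at Nkx2-5, and 55.6 and 1.01 kb at Pax6. Kdm6bWT coverage was 0.138% of Kdm6bMUT coverage at Foxa2, 1.47% at Tbx5, 0.787% at Nkx2-5 and 1.82% at Pax6. Over all autosomes it was 1.36%, so a gap of this kind between the lists was present throughout. Counting only bases in both lists, the Kdm6bWT peaks held 0.0655% of the Kdm6bMUT bases at Foxa2, 0.482% at Tbx5, 0.787% at Nkx2-5 and 0% at Pax6. Over all autosomes that share was 0.591%, so Foxa2 and Pax6 lay below it, Tbx5 near it and Nkx2-5 above it; each rests on at most 5 Kdm6bWT peaks, and no gene is set apart by it. Since depth is unknown and affects how many peaks can be called, the share of this gap that comes from the mark was not tested.

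The 5′ ends were looked at by themselves because Polycomb targeting is known from CpG-rich promoters. The strand was given for 5 members, matched by symbol to RefSeq promoters on GRCm38.p6; Tbx5 and Sox17 were not matched. Within 2.5 kb of the 5′ end of the interval, Kdm6bMUT peaks covered 51.7% at Nkx2-5 and 20.1% at Foxa2, and 0% at Pax6, Olig2 and T. At Tbx5 they covered 41.4% around the low-coordinate end and 7.92% around the high-coordinate end; at Sox17 they covered 0% around both. No Kdm6bWT peak lay within 2.5 kb of an end of any of the 7 intervals. Each entry is 250 bases long and stops before the transcription start. Other RefSeq starts, such as the second of Pax6, which lies downstream of the first, were not placed on the peaks. The sequences below are of Olig2 and T, without peaks within 20 kb, and of Pax6 and Foxa2, with peaks. Pax6 had none within 2.5 kb of the 5′ end of its interval, and Foxa2 had 1 that lay 1.26 kb upstream. Each sequence is the entry of its gene whose start is the outermost in RefSeq, written 5′ to 3′ with CG dinucleotides in capitals.
Olig2 (GRCm38.p6, chr16:91225300-91225549, plus strand): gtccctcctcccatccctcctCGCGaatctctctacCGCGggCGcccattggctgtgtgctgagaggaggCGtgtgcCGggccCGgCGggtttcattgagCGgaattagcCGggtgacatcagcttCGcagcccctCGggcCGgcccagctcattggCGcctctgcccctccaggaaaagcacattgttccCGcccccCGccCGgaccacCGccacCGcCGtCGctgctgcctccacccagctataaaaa
T (GRCm38.p6, chr17:8434173-8434422, plus strand): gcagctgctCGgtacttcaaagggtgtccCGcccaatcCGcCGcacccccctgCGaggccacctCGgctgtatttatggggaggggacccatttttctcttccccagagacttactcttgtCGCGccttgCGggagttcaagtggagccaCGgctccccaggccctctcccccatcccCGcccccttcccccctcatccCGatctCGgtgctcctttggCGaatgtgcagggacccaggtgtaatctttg
Pax6 (GRCm38.p6, chr2:105668646-105668895, plus strand): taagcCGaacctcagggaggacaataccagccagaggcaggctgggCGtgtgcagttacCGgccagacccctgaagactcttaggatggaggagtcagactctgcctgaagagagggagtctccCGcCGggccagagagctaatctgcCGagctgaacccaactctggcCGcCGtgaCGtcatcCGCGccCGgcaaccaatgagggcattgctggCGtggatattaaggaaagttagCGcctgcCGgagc
Foxa2 (GRCm38.p6, chr2:148046970-148047219, minus strand): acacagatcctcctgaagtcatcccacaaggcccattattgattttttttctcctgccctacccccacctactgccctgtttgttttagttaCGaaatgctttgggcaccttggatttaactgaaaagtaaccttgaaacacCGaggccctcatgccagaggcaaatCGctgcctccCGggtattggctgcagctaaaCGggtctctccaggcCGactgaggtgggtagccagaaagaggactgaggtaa

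CG dinucleotides were more frequent than in the median promoter at Olig2 and T, which had no Kdm6bMUT peak within 20 kb. The same held at Pax6, Nkx2-5 and Foxa2, which had peaks, except for the Foxa2 entry with 6. The 250 bases of Olig2 held 22 and those of T 14, beside a median of 6 (quartiles 2 and 16) over 32851 RefSeq promoters; 85.2% and 70.6% of these held fewer. Both entries of Pax6 held 15, that of Nkx2-5 held 8, and the 3 entries of Foxa2 held 6, 20 and 13. The ratio of observed to expected CG was 0.821 at Olig2, 0.594 at T, 0.652 and 1.06 at Pax6, 0.535 at Nkx2-5 and 0.376, 0.732 and 0.730 at Foxa2, with a median of 0.374 over all promoters. Among the sequences printed above, the most CG-rich belonged to a gene without a peak within 20 kb and the least CG-rich to Foxa2. With 5 genes matched, no relation between CG content and peaks can be read from this.

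**Figure D5:**
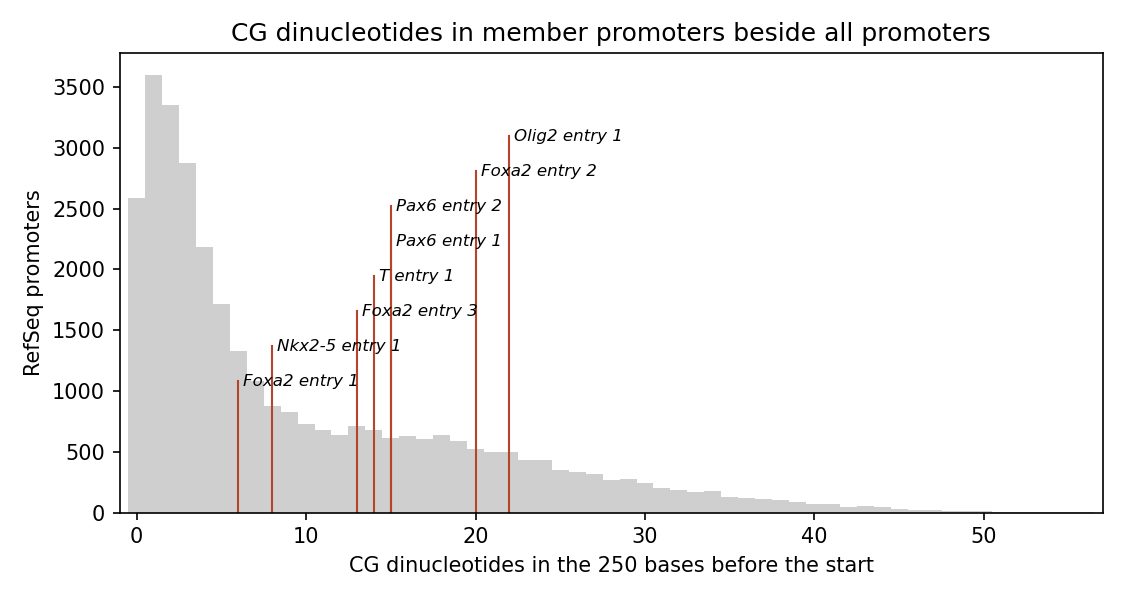
Number of RefSeq promoters (y axis) by the count of CG dinucleotides in the 250 bases before the start (x axis), with red lines for the 8 entries of the 5 matched genes, drawn at different heights only to separate the labels. The entries range from 6 (Foxa2, entry 1) to 22 (Olig2), and the median of all promoters is 6.

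The motif GGGCGG, a GC box that itself contains a CG, was searched on both strands. It was present at Olig2, T and 2 of the 3 Foxa2 entries, and in 32.7% of all promoters. TATAAA, the core of the TATA box, was present at Olig2 and 1 Foxa2 entry, and in 12.4% of all promoters. Neither motif was found in the entries of Pax6 and Nkx2-5.

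Neighbouring genes share some of the windows, so a peak in a flank need not belong to the member. In RefSeq on GRCm38 the Pax6 neighbourhood also holds Pax6os1, Paupar and Elp4, and that of T holds T2 and LOC115486424. Long noncoding RNAs lie within 20 kb of Foxa2 (9030622O22Rik), Olig2 (Gm52261), Tbx5 (Gm42017, Gm5563) and Nkx2-5 (LOC115488773, Gm17382). The next coding genes along the chromosome are Tbx3 and Rbm19 at Tbx5, Bnip1 and Kifc5b at Nkx2-5, and Pax1 and Sstr4 at Foxa2. These names come from a build other than that of the peaks, so none of them was placed on a peak. The RefSeq gene models of Pax6, Tbx5, Nkx2-5 and Sox17 are longer than the intervals used here, so a flank peak can lie inside a longer transcript.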

How the data were processed

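Of 8 samples, the peak lists of the 2 H3K27me3 ChIP libraries were used, each called against input; the 4 blastocyst RNA libraries were not analysed here. Among the tools in the submitters' processing notes are the aligner Bowtie2 2.2.2 and the peak caller MACS2, with mm9 as the build. The settings of the caller are not stated there. Values are as deposited by the authors: a fold enrichment (ratio) of ChIP over input, a −log10 p and −log10 q, and a score that follows the −log10 q. They were used only within a list, except for a shared limit on −log10 p. The files hold no counts, so depth is unknown.

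Gene intervals are mm9 positions rounded to kilobases; no mm9 annotation was used here, and a reference on GRCm38 gave names, strand, neighbours and promoter sequences, matched by symbol. Each of the 7 genes had the same chromosome in both. A peak counted at 1 shared base. Tiles were non-overlapping, from the first to the last peak of each of 19 autosomes. Covered lengths, gaps and promoter composition were computed in Python 3.11.15 (pandas 2.3.3, numpy 2.4.6; scipy 1.17.1 for intervals; matplotlib 3.10.9 for plots); the coverage code was tested on simulated data. The members were chosen with earlier results of these data known, and all 7 were named. No test between groups was made, since each has 1 library. Alternatives were other margins, flanks, limits, merging and overlaps.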

Additional observations from a re-analysis of the deposited data

How the results depend on the processing

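No paired analysis was possible because there is a single ChIP library for either mRNA. Alternative settings gave 59 values. For 31 the change was at most 1.5 times (counts), or the share was inside the 95% exact binomial interval of the reported share (taken over bases, which are not independent, so it is narrow); 28 moved further. The count of genes with a Kdm6bMUT peak within 2.5 kb was 4 at margins of 0, 1 and 5 kb, 3 where 50% of the peak had to lie in the window, 2 at the −log10 p limit of the Kdm6bWT list and 2 of the 5 genes with a strand around the 5′ end. Near-gene shares in the Kdm6bMUT and Kdm6bWT lists were 24.8% and 1.18% at 0 kb, 23.8% and 1.05% at 1 kb, and 21.6% and 0.721% at 5 kb. Around 5′ ends they were 14.4% and 0%, and 0 genes had a Kdm6bWT peak. The 5′-end setting leaves out Tbx5, which held the 1 near-gene Kdm6bWT peak, so it changes the genes as well as the window. Its values are therefore not read as a fall from the reported shares, which without Tbx5 were 9.76% and 0%. Flanks to 10 kb gave 18.4% (Kdm6bMUT) and 0% (Kdm6bWT, with 0 genes), and flanks to 50 kb gave 15.9% and 0.197%, with 5 genes (Kdm6bMUT, Olig2 added) in place of 4. A score of at least 13 left 0 genes with a Kdm6bWT flank peak, a share of 0%. At the −log10 p limit the Kdm6bMUT shares were 4.12% near the genes and 8.89% in the flanks, so the order turned. Merging below 5 kb raised them to 47.1% and 28.4%. The flank share without Foxa2 was 11.6%, and the unweighted mean of the near-gene shares was 16.2%, below the 17.2% of the flanks. Leaving out Tbx5, chosen after seeing the data, gave 9.76% and 16.7% (Kdm6bMUT) and 0% and 0.625% (Kdm6bWT). Other margins, limits and left-out genes change the bases counted by construction. Depth limits every absence here: a weak domain in a shallow library gives no peak.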
